A study of Mus musculus with 2 samples.

Results

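Group 2 innate lymphoid cells (ILC2s) are tissue lymphocytes without antigen receptors that answer alarmins with type 2 cytokines. The 7 MHC class II genes H2-Aa, H2-Ab1, H2-Eb1, Cd74, H2-DMa, H2-DMb1 and Ciita were examined out of 32285 genes in droplet-based scRNA-Seq of lung ILC2s, with 1 pooled library from WT mice and 1 from Pac1-/- mice. PAC1 is the phosphatase encoded by Dusp2, the Pac1-/- mice lack it, and the mice were young adults on a C57BL/6J background with no stimulus named in the labels. Cells of several mice of a genotype were mixed after a sort for lineage-negative, CD90.2+, ST2+ and Sca-1+ lung cells, so no library can be split by animal. The genes were chosen by name, and barcodes were kept where at least 500 genes were detected, at most 10% of unique molecular identifiers (UMIs) were mitochondrial, and no UMI of the B cell genes Cd79a, Cd79b or Igkc was present. These limits kept 8174 of 10866 WT barcodes (51767966 UMIs, median 4153 per barcode) and 6808 of 9495 Pac1-/- barcodes (54404248 UMIs, median 5518.5). All 7 genes were detected in both libraries, and 6 of them had at least 50 UMIs over both. With 1 library per genotype no difference has a replicate check, and all intervals below are 95% intervals that cover counting error only.

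The sort label was checked first. Il1rl1, which encodes ST2, had UMIs in 91.8% of kept WT and 93.0% of kept Pac1-/- barcodes, and Gata3, the lineage-defining factor of ILC2s, in 88.6% and 90.6%. Dusp2 gave 1326 UMIs in the WT library and 3 in the Pac1-/- library. Libraries shared 29 barcodes, 14 of them among the kept ones. Barcodes deeper than 2 times their library's median, which can hold 2 cells, were 20.8% of those kept in WT and 18.9% in Pac1-/-.

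MHC class II molecules are αβ dimers that carry peptides from the endocytic pathway to CD4+ T cells. H2-Aa and H2-Ab1 encode the chains of I-A, and H2-Eb1 encodes the β chain of I-E, which C57BL/6 mice transcribe although they make no I-E dimer. Cd74 encodes the invariant chain that fills the groove of new dimers, H2-DMa and H2-DMb1 encode the DM dimer that exchanges its remnant for peptide, and CIITA, the product of Ciita, is the coactivator that the class II promoters require. In lung the best known carriers of these molecules are dendritic cells, B cells and macrophages, and ILC2s can also display them.

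CIITA does not bind DNA itself but joins RFX, CREB and NF-Y factors on the X and Y boxes upstream of the start site. The promoters are shown here because CIITA acts through these boxes on the genes measured below. H2-Oa, the other class II gene with many UMIs, is shown beside them. RefSeq promoter sequences (GRCm38.p6) covered H2-Aa, H2-Eb1, H2-DMa and H2-DMb1 among the 7 genes. Each stretch runs 5′ to 3′ on the gene's strand for 100 bases and ends at position -30, where -1 is the last base before the start site. Capitals mark the letters GATTGG (a Y box core), TGACGTCA (a cAMP response element) or an X box form, which is the run in capitals before GATTGG in H2-Eb1 and H2-DMb1 with any base allowed at 2 of its places. All were searched on both strands and chosen after these promoters had been read, and no motif overlapped another.
H2-Aa, chr17:34287853-34287952, minus strand: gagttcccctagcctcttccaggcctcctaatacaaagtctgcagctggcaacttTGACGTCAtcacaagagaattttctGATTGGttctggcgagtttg
H2-Eb1, chr17:34305738-34305837, plus strand: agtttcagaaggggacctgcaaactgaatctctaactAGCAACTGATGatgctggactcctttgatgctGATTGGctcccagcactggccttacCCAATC
H2-DMb1, chr17:34153062-34153161, plus strand: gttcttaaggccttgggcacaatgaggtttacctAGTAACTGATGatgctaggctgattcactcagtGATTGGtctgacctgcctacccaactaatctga
H2-DMa, chr17:34122703-34122802, plus strand: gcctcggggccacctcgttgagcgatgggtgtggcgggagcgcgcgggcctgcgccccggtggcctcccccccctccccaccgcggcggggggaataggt
H2-Oa, chr17:34092250-34092349, plus strand: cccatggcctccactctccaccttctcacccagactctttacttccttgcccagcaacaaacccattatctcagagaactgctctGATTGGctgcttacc
GATTGG began at -49 in H2-Aa, -60 in H2-Eb1, -62 in H2-DMb1 and -44 in H2-Oa, and H2-Eb1 held it once more on the other strand. The X box form began at -92 in H2-Eb1 and -95 in H2-DMb1, and TGACGTCA at -74 in H2-Aa. None of these letters lay in the 250 bases before this start of H2-DMa. A further RefSeq start of H2-DMa, at position 34125518 of chromosome 17, had GATTGG at -199 and neither of the other motifs. Of 32851 promoter windows of 250 bases, 14.6% held GATTGG, 0.259% the X box form and 1.55% TGACGTCA. A match of letters shows no binding, and its absence shows none missing.

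Cd74 had the highest level of the 7 genes, H2-DMa came next, and the classical chains lay well below both. Levels are UMIs of a gene per 1000000 UMIs of kept barcodes (CPM), which count 3′ ends and were not divided by transcript length. Cd74 (chr18:60803848-60812652, GRCm38) gave 895 UMIs in WT, or 17.3 CPM (exact Poisson interval 16.2 to 18.5), and 962 in Pac1-/-, or 17.7 CPM (16.6 to 18.8). H2-DMa (chr17:34119541-34139101) was at 6.55 CPM (5.87 to 7.28) and 6.05 CPM (5.41 to 6.74). CR974462.3, another annotated gene, overlaps it on the same strand, so its counts are uncertain to that extent.

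The 3 classical chains lay close together in both libraries. H2-Aa (chr17:34282744-34287823) gave 77 UMIs in WT, or 1.49 CPM (1.17 to 1.86), and 137 in Pac1-/-, or 2.52 CPM (2.11 to 2.98). H2-Ab1 (chr17:34257689-34269419) gave 99 and 115 UMIs, or 1.91 CPM (1.55 to 2.33) and 2.11 CPM (1.75 to 2.54). H2-Eb1 (chr17:34305867-34316674) gave 75 and 105 UMIs, or 1.45 CPM (1.14 to 1.82) and 1.93 CPM (1.58 to 2.34). Within a library the intervals of these 3 genes overlapped, so their order was not resolved at this depth.

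Ciita and H2-DMb1 were rarest. Ciita (chr16:10480059-10528418) gave 42 UMIs in WT, or 0.811 CPM (0.585 to 1.10), and 57 in Pac1-/-, or 1.05 CPM (0.794 to 1.36). H2-DMb1 (chr17:34153072-34160230) gave 10 and 16 UMIs, or 0.193 CPM (0.0926 to 0.355) and 0.294 CPM (0.168 to 0.478). H2-DMb1 has a near copy, H2-DMb2, with 8 and 6 UMIs, and reads that fit both can have been lost. For the DM dimer the α chain gene was thus counted far more often than the β chain gene, with H2-DMa at 339 and 329 UMIs.

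**Figure D1:**
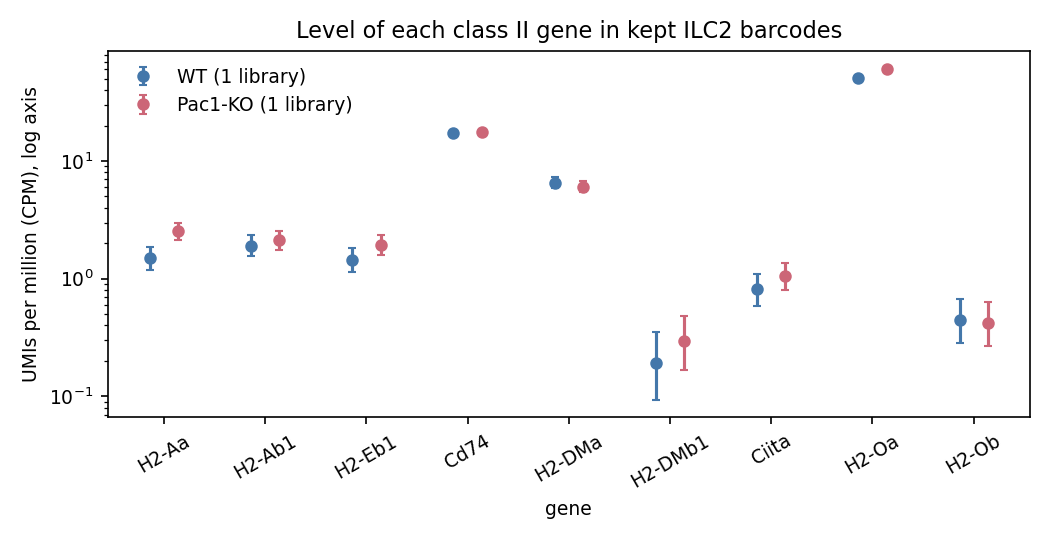
Level of the 7 class II genes and of the DO genes H2-Oa and H2-Ob in kept barcodes, in CPM on a log axis, for the WT library (blue) and the Pac1-KO library (red), 1 library each, with exact Poisson intervals. Cd74 at 17.3 and 17.7 CPM lies above the other members, H2-DMb1 lies lowest, and H2-Oa at 51.0 and 60.4 CPM lies above all of them.

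Few barcodes carried a class II UMI. Cd74 gave a UMI in 6.42% of WT barcodes (exact binomial interval 5.90 to 6.98) and in 6.60% of Pac1-/- barcodes, and an H2-DMa UMI in 3.74% and 4.49%. The classical chains were each found in 0.453% to 0.820% of WT barcodes and 0.793% to 1.13% of Pac1-/- barcodes. Because the libraries differ in depth, shares were also taken after each barcode was thinned at random to 1500 UMIs, and 755 WT and 516 Pac1-/- barcodes that were shallower than this had to be left out. At this depth 3.36% of WT (2.96 to 3.79) and 3.35% of Pac1-/- barcodes (2.92 to 3.83) held any of the 7 genes. Cd74 was in 2.04% (1.73 to 2.38) and 1.83%, H2-DMa in 0.944% (0.736 to 1.19) and 0.858%, and Ciita in 0.121% and 0.175%. H2-Aa was in 0.0944% (0.0379 to 0.194) and 0.254% (0.145 to 0.413), and H2-Ab1 and H2-Eb1 in 0.189% to 0.302%. Over 20 repeated thinnings the H2-Aa share ran from 0.0809% to 0.202% in WT and from 0.159% to 0.318% in Pac1-/-. No thinned share differed between the libraries beyond the counting intervals, and H2-DMb1 was seen in 0 and 1 barcodes. No cell type that should lack class II was separated here, so these shares hold an unknown part of free RNA, which the B cell comparison addresses for a single source.

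The comparison of the genotypes asked whether class II transcripts moved with the loss of PAC1. None of the 6 members with at least 50 UMIs reached a 2-fold difference in kept barcodes. With barcodes of B cell UMIs included, the log2 ratios of H2-Aa, H2-Eb1 and H2-Ab1 were 1.80, 1.69 and 1.36, so these 3 calls rest on the exclusion. Of 12313 genes with at least 50 UMIs, 3.22% were 2-fold or more higher in Pac1-/- and 3.31% lower as counted (6.53% in either direction). Relative to the median gene, whose log2 ratio was 0.18, these shares were 1.9% and 4.97% (6.87%). The median log2 ratio of the 6 members was 0.26. H2-Aa had the largest ratio of these 6, a log2 ratio of Pac1-/- over WT of 0.76 (exact conditional binomial interval 0.35 to 1.18), or 0.58 (0.17 to 1.0) when set against that median. The summed classical chains were at 0.44 (0.20 to 0.68) as counted and 0.26 (0.019 to 0.49) relative to the median gene, on 251 and 357 UMIs. The 9 B cell genes that the barcode rule had not used gave 41 and 67 UMIs. Ebf1 gave 3 and 21 of these, with 8 of the 21 in 1 barcode, and without it they gave 38 and 46. At the ratio of B cell barcodes described below the 9 genes would bring 41.7 of the 251 and 149 of the 357 UMIs. Without Cr2 these numbers were 22.4 and 95.8, and without Ebf1 74.7 and 155, so how much of the classical chain ratio goes with B cell RNA was not settled. RNA of some other cell types was also higher in the Pac1-/- library, while the 2 dendritic cell markers with at least 50 UMIs were lower, at a median of -1.59. Log2 ratios were 2.15 to 3.11 for the 4 erythroid globin genes (Hba-a1 at 24.0 and 106 CPM), 2.04 for Lyz2 and 5.62 for Sftpc, of which single Pac1-/- barcodes held 177 of 286 and 641 of 672 UMIs, and their part in the class II ratios was not tested. The 3 Pac1-/- barcodes richest in class II held 63 of the 137 H2-Aa UMIs, and the 3 richest WT barcodes 10 of 77. Leaving out barcodes with a macrophage or dendritic cell marker gave 0.38 (-0.073 to 0.84) for H2-Aa and 0.18 (-0.084 to 0.44) for the summed chains. Of these markers Zbtb46 was in 422 WT and 204 Pac1-/- kept barcodes and Xcr1 in 175 and 53. Cd68 was in 55 and 71 and Lyz2 in 31 and 40, so the filter did not fall alike on the libraries. Leaving out barcodes with over 2 times the median UMIs gave 0.44 (-0.14 to 1.03) for H2-Aa and 0.49 (0.15 to 0.82) for the summed chains.

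The other members moved less. Log2 ratios as counted were 0.41 (-0.027 to 0.86) for H2-Eb1, 0.37 (-0.23 to 0.98) for Ciita and 0.14 (-0.26 to 0.55) for H2-Ab1, so none of these single genes was separated from 0 at this depth. Cd74 was at 0.03 (-0.10 to 0.17) and H2-DMa at -0.11 (-0.34 to 0.11). Relative to the median gene Cd74 was at -0.15 (-0.28 to -0.016) and H2-DMa at -0.30 (-0.52 to -0.073), so both lay just below it while H2-Aa lay above it. The direction of Cd74 and of H2-Ab1 (-0.037, -0.44 to 0.37, relative to the median gene) thus depended on the scaling. H2-DMb1 was at 0.61 (-0.62 to 1.91), on too few UMIs to read. With barcodes of B cell UMIs included, the summed members gave 37.5 and 69.2 CPM in place of 29.7 and 31.6 CPM.

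Most kept barcodes had no class II UMI, and a small number held many. Of kept barcodes, 89.0% in WT and 87.6% in Pac1-/- had no member UMI. Barcodes with a single member UMI held 43.7% of all 1537 member UMIs in WT and 35.8% of all 1721 in Pac1-/-. At the other end 37 WT barcodes (0.453%, interval 0.319 to 0.623) and 52 Pac1-/- barcodes (0.764%, 0.571 to 1.0) had at least 5 member UMIs, and these held 26.6% and 39.0% of member UMIs. Their median depth was 8628 and 11622 UMIs against 4149 and 5500 in the others, and 19 and 28 of them had over 2 times the median of their library. Their number therefore moves with depth and with any barcodes that hold 2 cells, whose part was not tested.

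**Figure D2:**
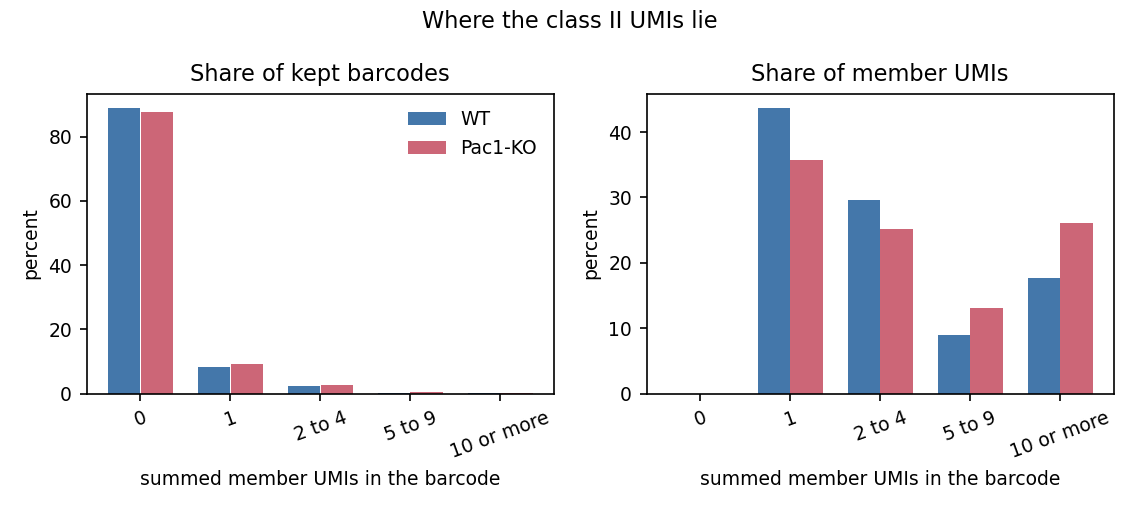
Share of kept barcodes (left) and share of all member UMIs (right), in percent, by the summed UMIs of the 7 class II genes in a barcode, for WT (blue) and Pac1-KO (red). Barcodes with 5 or more member UMIs are 0.453% and 0.764% of barcodes and hold 26.6% and 39.0% of the UMIs.

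In the barcodes of at least 5 member UMIs the classical chains and Cd74 were the most enriched, and H2-DMa and Ciita were less so. These barcodes held 0.926% of all kept UMIs in WT and 1.48% in Pac1-/-. They were chosen by the members, so the values are a description. Of the members, they held 62.3% of WT and 72.3% of Pac1-/- H2-Aa UMIs, 51.5% and 51.3% of H2-Ab1 UMIs, and 28.8% and 45.5% of Cd74 UMIs. For H2-DMa the shares were 3.83% and 5.17%, on 13 and 17 UMIs, or 27.1 and 21.1 CPM inside these barcodes against 6.36 and 5.82 CPM outside. For Ciita they were 2.38% and 8.77%, on 1 and 5 UMIs. A classical chain stood beside Cd74 in 26 of the 37 and 30 of the 52 barcodes, and Cd74 was the sole member in 7 and 16. The WT barcode with the most member UMIs had 31, of which 20 were Cd74 and 5 H2-Aa, at 30266 UMIs in all. In Pac1-/- the corresponding barcode had 90, of which 57 were Cd74 and 25 H2-Aa, at 11551 UMIs in all.

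The same barcodes carried ILC2 transcripts. Gata3 or Il1rl1 was found in 35 of 37 and 50 of 52 of them, and in 97.7% of the other kept barcodes of either library. A droplet that held an ILC2 and another cell would also give these transcripts, which was not tested. Summed UMIs of 10 ILC2 markers were at 8716 CPM in these WT barcodes against 7504 CPM in the others, and at 6993 against 6617 CPM in Pac1-/-. Of 9 B cell genes that the barcode rule had not used, none had a UMI in any of the 37 or 52 barcodes, which allows up to 7.69 and 4.58 CPM (exact Poisson). In barcodes that served as B cell reference, described below, these genes were at 2723 and 2140 CPM. At the reference's ratio the 409 and 672 member UMIs of the class II-rich barcodes would come with 141 UMIs of these genes per library. The count was 0 in both. The rule had already removed barcodes with Cd79a, Cd79b or Igkc UMIs, at 57, 49 and 207 UMIs in the WT reference. A low count of the 9 genes was thus largely set by that rule, and the source of these member UMIs was not tested. Of 10 macrophage markers, Cd68 gave 1 UMI in each library and Lyz2 177 in a single Pac1-/- barcode, and the defining markers Csf1r, Adgre1, C1qa, C1qb, C1qc, Fcgr1, Ms4a7 and Chil3 were at 0 in both. Of 10 dendritic cell markers, Clec9a, Cd209a, Flt3, Itgax, Siglech, Ccl22 and Fscn1 were at 0, Xcr1 and Wdfy4 gave 3 and 1 UMIs in WT alone, and Zbtb46 gave 6 and 8 UMIs, or 12.5 and 9.93 CPM against 9.94 and 4.12 CPM in the others. Of 4 endothelial markers Cdh5 and Cldn5 were at 0, Ramp2 gave 4 UMIs in 1 Pac1-/- barcode, and Pecam1 was at 81.3 CPM against 40.2 in WT and at 50.9 against 36.5 CPM in Pac1-/-. Of the listed costimulation genes, Tnfsf4 was at 41.7 against 5.77 CPM in WT and at 17.4 against 4.63 CPM in Pac1-/-. Icosl was lower than in the others, at 35.4 against 51.1 and 48.4 against 56.7 CPM. Of the pathway genes, Cd83 was at 18.8 against 8.97 and 43.4 against 9.03 CPM. Ctss was at 39.6 against 35.4 and 65.8 against 28.7 CPM, and Ctsb was lower, at 75.1 against 80.6 and 60.8 against 68.7 CPM. One Pac1-/- barcode stood apart with 641 UMIs of Sftpc, the alveolar type 2 cell gene for surfactant protein C. Without barcodes that held an alveolar type 2 marker, a choice made after the data were seen, the summed members were at 29.7 CPM in WT and 31.2 CPM in Pac1-/-.

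Co-detection was then measured across all kept barcodes, since transcripts of the same cell recur together. The classical chains were found together far more often than the product of their shares gives. Before thinning, H2-Aa and H2-Ab1 shared 13 WT barcodes against 0.303 expected (observed over expected 42.9, exact Poisson interval 22.8 to 73.3) and 19 Pac1-/- barcodes against 0.611 (31.1, 18.7 to 48.6). H2-Aa with H2-Eb1 was at 38.2 and 25.2 times expectation, and H2-Ab1 with H2-Eb1 at 35.2 and 25.3. The rare H2-DMb1 was with H2-Aa at 44.2 (5.35 to 160) and 39.4 (12.8 to 91.9), on 2 and 5 shared barcodes. With H2-Ab1 and H2-Eb1 it was at 12.2 and 15.7 in WT, on 1 barcode each, and at 27.6 and 30.4 in Pac1-/-. Cd74 shared 48 WT barcodes with any classical chain against 8.22 expected (5.84, 4.30 to 7.74) and 61 Pac1-/- barcodes against 10.7 (5.71, 4.37 to 7.33). Deep barcodes hold more of every gene and raise all such ratios. H2-Oa was found with Cd74 at 1.68 and 1.43 times expectation on the same scale, and H2-DMa with Cd74 at 2.19 (1.58 to 2.95) and 2.03 (1.46 to 2.76). H2-DMa with H2-Ab1 was at 4.39 (2.19 to 7.85) and 4.33 (2.43 to 7.15), and with H2-Eb1 at 3.6 (1.45 to 7.41) and 3.18 (1.52 to 5.85), while with H2-Aa it was at 2.17 (0.447 to 6.33) and 2.47 (0.907 to 5.38), with 1 inside both intervals. H2-Oa with these 2 chains was at 1.08 to 1.77.

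Thinning left few shared barcodes, and the ratios depended on its depth. At 1500 UMIs Cd74 and a classical chain shared 15 WT barcodes against 0.712 expected (21.1, 11.8 to 34.7) and 12 Pac1-/- barcodes against 0.804 (14.9, 7.71 to 26.1), and over 20 repeated thinnings 6 to 17 and 9 to 20. At 3000 UMIs the ratios were 7.40 (4.05 to 12.4) and 11.0 (7.12 to 16.2). H2-DMa shared 1 barcode with Cd74 in each library, against 1.42 and 0.987 expected (0 to 4 and 1 to 6 over the repeats). Its pairs with single classical chains, and those of Ciita with Cd74, had under 1 barcode expected and cannot be read at this depth. Without thinning Ciita and Cd74 shared 3 WT barcodes against 2.50 expected (1.20, 0.247 to 3.50). In Pac1-/- they shared 10 against 3.50 (2.86, 1.37 to 5.26). Cd74 and the classical chains recurred together at every depth tried.

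**Figure D3:**
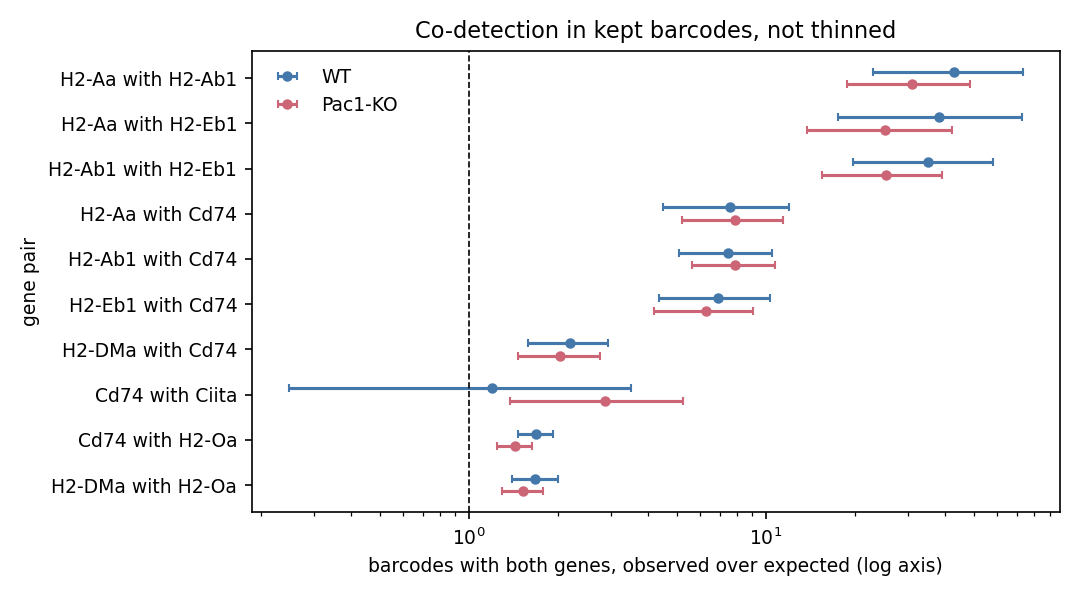
Kept barcodes that hold both genes of a pair, as observed over expected from the product of the shares, on a log axis, without thinning, for WT (blue) and Pac1-KO (red), with exact Poisson intervals. Among pairs without H2-DMb1, those of classical chains lie highest, at 25.2 to 42.9. The pairs of Cd74 with H2-Oa or H2-DMa lie at 1.43 to 2.19.

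The members were set against free RNA from B cells, which were present in both sorts in small numbers. RNA released by lysed cells enters every droplet, and a single source keeps its genes in a fixed ratio. As reference served barcodes with both Cd79a and Cd79b and at least 3 UMIs of the pair, 7 in WT and 20 in Pac1-/-. These held 21 to 88 member UMIs each in WT and 28 to 148 in Pac1-/-, and Gata3 or Il1rl1 was found in 3 and 10 of them, so some also held ILC2 transcripts. Kept barcodes contained 41 WT and 67 Pac1-/- UMIs of the 9 B cell genes not used by the rule. In the reference these genes came with 2.90 and 4.76 member UMIs each. At that ratio they would bring 119 of 1537 member UMIs in WT, or 7.73% (5.27 to 11.1, from the counts of the 9 genes alone), and 319 of 1721 in Pac1-/-, or 18.5% (14.1 to 24.1).

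The share differed strongly between members. For the summed classical chains it was 16.6% (11.3 to 23.9) in WT and 41.8% (31.7 to 54.3) in Pac1-/-, for Cd74 8.37% and 17.0%, and for H2-DMa and Ciita 0.521% to 1.13%. The result depended on which genes stood for B cells. Cr2 gave 19 of the 41 WT UMIs and none in the WT reference, and without it, a choice made after the data were seen, the shares for all members fell to 4.15% (2.50 to 6.58) and 11.9% (8.43 to 16.4), and those for the classical chains to 8.92% (5.38 to 14.2) and 26.8% (19.0 to 37.0). Without Ebf1, likewise chosen after the data were seen, the shares were 13.8% (8.97 to 21.1) and 19.2% (13.7 to 26.4) for all members, and 29.8% (19.3 to 45.4) and 43.3% (30.9 to 59.5) for the classical chains. The exclusion of Cd79a, Cd79b and Igkc removes barcodes that caught free B cell RNA along with B cells, and RNA of other cell types was not measured in this way.

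The members also stood in another ratio to each other than in the B cell reference. In CPM the reference lay above kept barcodes for Cd74 (4977 and 5234), H2-DMa (117 and 119) and Ciita (23.5 and 16.9). H2-Oa was at 47.0 and 79.0 CPM there, near its 51.0 and 60.4 CPM in kept barcodes. A higher ratio to Cd74 below thus does not mean a higher level. Per Cd74 UMI, kept barcodes held 0.379 H2-DMa UMIs in WT and 0.342 in Pac1-/-, and the reference 0.0236 and 0.0227, a 16.1-fold (6.81 to 49.8) and 15.1-fold (9.71 to 24.7) difference. Ciita per Cd74 was 9.95-fold (1.69 to 402) and 18.3-fold (5.96 to 91.4) higher in kept barcodes, on 1 and 3 reference UMIs. The summed classical chains per Cd74 were lower in kept barcodes, at 0.280 and 0.371 against 0.557 and 0.910 in the reference. H2-Oa per Cd74 was 2.95 and 3.41 in kept barcodes against 0.00943 and 0.0151, a 313-fold (86.5 to 2583) and 226-fold (135 to 414) difference on 2 and 14 reference UMIs. H2-DMb1 had 0 and 8 reference UMIs, and its ratio in Pac1-/- was 1.93-fold (0.778 to 5.20).

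**Figure D4:**
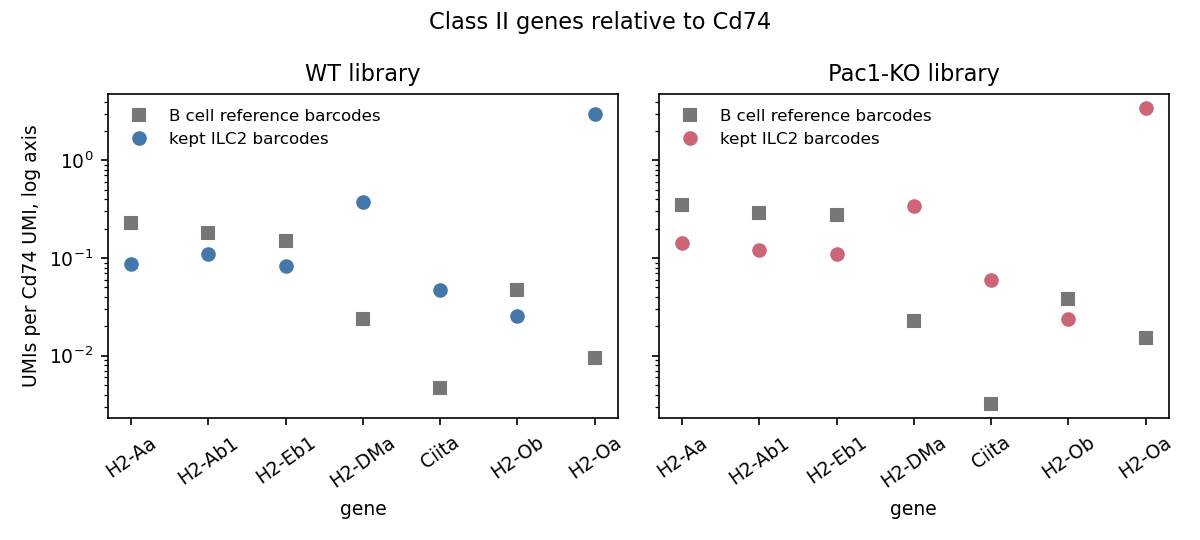
UMIs of each gene per Cd74 UMI, on a log axis, in kept ILC2 barcodes (circles) and in B cell reference barcodes (grey squares), for the WT library (left) and the Pac1-KO library (right). Per Cd74 UMI, the classical chains lie below the reference in kept barcodes, and H2-DMa, Ciita and H2-Oa lie above it, in both libraries.

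Levels were followed over depth, since RNA that enters every droplet alike adds a like number of UMIs to shallow and deep barcodes. Depth also varies with how much RNA a droplet captures, which scales free RNA and cell RNA together. The values are therefore a description, and the source of the UMIs was not tested. Kept barcodes were put into 5 classes of equal size by their total UMIs. In WT, Cd74 rose from 2.81 UMIs per 100 barcodes in the shallowest class (median 1734 UMIs) to 26.1 in the deepest (median 13222 UMIs), at 16.0 CPM (11.7 to 21.4) and 16.3 CPM (14.8 to 17.9). In Pac1-/- the same classes were at 18.7 CPM (14.2 to 24.2) and 19.8 CPM (18.1 to 21.5). H2-DMa was at 6.97 and 6.46 CPM in WT and at 7.76 and 5.62 CPM in Pac1-/-, and the summed classical chains stayed between 4.78 and 4.97 CPM in all WT classes. The Pac1-/- classical chains ran from 9.70 CPM (6.54 to 13.8) in the shallowest class to 6.52 CPM (5.59 to 7.56) in the deepest. The end classes of Cd74 and of the classical chains thus overlapped in CPM within each library. Between them WT Cd74 was uneven, at 13.6 CPM (11.0 to 16.7) in the third class and 22.6 CPM (19.8 to 25.6) in the fourth. The 4 globin genes, red cell transcripts, went between the end classes from 45.7 CPM (38.2 to 54.2) to 18.8 CPM (17.2 to 20.6) in WT and from 76.3 to 53.3 CPM in Pac1-/-, though they peaked in the fourth class at 142 and 994 CPM. Gata3, a transcript of the ILC2s themselves, went the other way, from 880 to 1308 CPM in WT and from 840 to 1106 CPM in Pac1-/-. The second Pac1-/- class was low, with Cd74 at 8.84 CPM (6.63 to 11.6) and the classical chains at 2.34 CPM (1.28 to 3.92). Levels were higher in the still shallower barcodes with under 500 genes, which these classes left out. There Cd74 was at 37.6 CPM in WT and 36.5 CPM in Pac1-/-, and the classical chains at 17.4 and 27.7 CPM. Barcodes with B cell genes were not removed there.

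**Figure D5:**
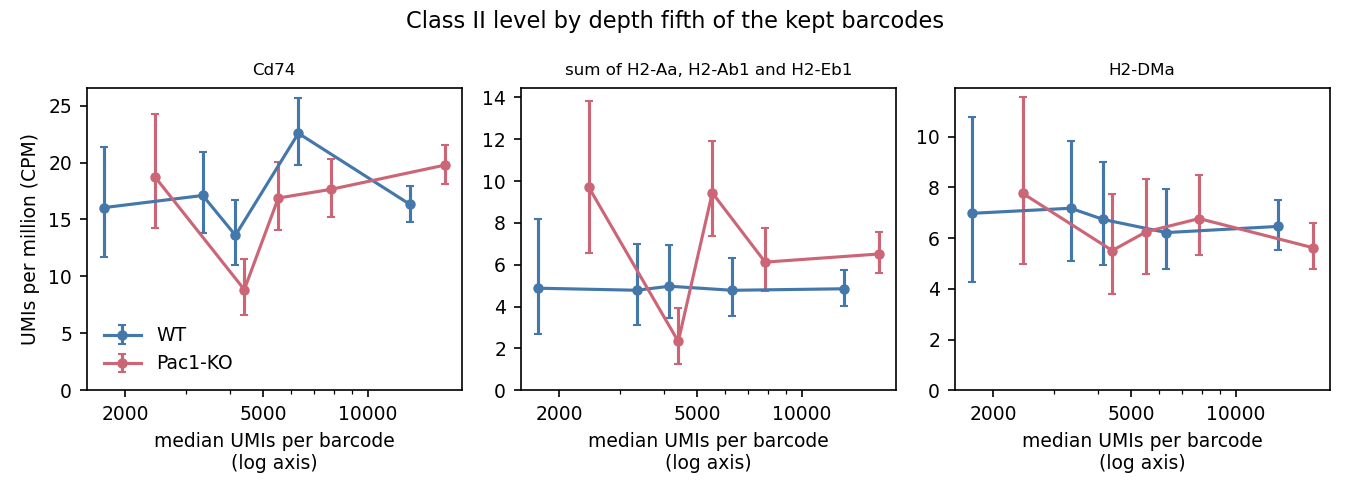
Level in CPM of Cd74 (left), the summed classical chains (middle) and H2-DMa (right) in 5 depth classes of kept barcodes, against the median UMIs per barcode of the class on a log axis, for WT (blue) and Pac1-KO (red), with exact Poisson intervals. WT levels of the classical chains stay at 4.78 to 4.97 CPM, and the Pac1-KO points scatter more, with the second class lowest for Cd74 and the classical chains.

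Other genes of the class II pathway were present at uneven levels. Of 15 listed pathway genes 12 were found under their listed names, 8 had at least 50 UMIs, and none of these was 2-fold apart between the genotypes. Over all 12313 genes 6.53% were, so none among 8 lies near that share. H2-Oa, the α chain of DO, an inhibitor of DM, was at 51.0 CPM (49.1 to 53.0) in 24.4% of WT barcodes and at 60.4 CPM (58.3 to 62.5) in 33.5% of Pac1-/- barcodes. At 1500 UMIs these shares were 7.43% and 9.15%, and relative to the median gene its log2 ratio was 0.062 (-0.012 to 0.14). Its partner H2-Ob was at 0.444 and 0.423 CPM, on 23 UMIs in each library. In both DO and DM the α chain gene was thus counted more often than the β chain gene. Proteases of the endocytic pathway were well detected, with Ctsb at 80.5 and 68.6 CPM, Ctss, which trims the invariant chain, at 35.4 and 29.2 CPM, and Ctsl at 20.01 and 21.5 CPM. Ifi30, the lysosomal thiol reductase, was at 6.59 and 5.50 CPM. March1, the ligase that removes class II from the surface of resting antigen-presenting cells, gave 2 and 6 UMIs.

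The factors that CIITA joins were all present. Rfx5 was at 11.3 and 13.5 CPM, Rfxap at 20.1 and 26.2 CPM and Rfxank at 6.30 and 9.74 CPM, and the NF-Y subunit genes Nfya, Nfyb and Nfyc ran from 19.0 to 35.03 CPM. The interferon-γ route to Ciita was also represented, with Ifngr1 at 235 and 184 CPM and Irf1 at 135 and 136 CPM. Spi1, the myeloid factor PU.1, gave 9 and 7 UMIs. Of the 17 listed factors 16 had at least 50 UMIs and none was 2-fold apart, which lies near the 6.53% of all genes. Ciita at 0.811 and 1.05 CPM was thus below every factor named here except Spi1.

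Class I genes were counted far more often. H2-K1 was at 1446 and 1345 CPM, H2-D1 at 1612 and 1634 CPM, and B2m, the class I light chain, at 1664 and 1530 CPM, each in 94.6% to 97.3% of barcodes. Nlrc5, the class I counterpart of Ciita, was at 13.2 and 9.85 CPM. Of 12 class I pathway genes none was 2-fold apart between the genotypes, which lies near the 6.53% of all genes. Psmb8 and Psmb9, subunits of the immunoproteasome, were at log2 ratios of 0.50 (0.45 to 0.55) and 0.65 (0.54 to 0.75) as counted. The costimulators of classical antigen-presenting cells were scarce, with Cd80 at 7 and 4 UMIs, Cd86 at 27 and 26 and Cd40 at 8 and 5. Icosl, the ligand of ICOS, was at 51.0 and 56.6 CPM, and Pdcd1lg2, which encodes PD-L2, at 25.7 and 36.6 CPM.

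Genes most like the members were named by their level in barcodes of at least 5 member UMIs over the other kept barcodes, as the lower of both libraries' log2 ratios with 10 CPM added. The 10 with the largest such value were Fabp5, Idi1, Ifi27l2a, Tcf7, Rasgrp2, Stmn1, Ptgs2, Nkg7, Rilpl2 and Il18r1. Over all genes, 10 of 12313 (0.0812%) were 2-fold or more higher in both libraries, members included. In WT several rested on single barcodes. Fabp5, a fatty acid-binding protein, had 17 of its 24 UMIs in these WT barcodes in 1 of them, Idi1, of the mevalonate pathway, 18 of 24, and Ifi27l2a, an interferon-induced gene, 6 of 7. In Pac1-/- the same genes were found in more barcodes. Ifi27l2a had 191 UMIs in 10 barcodes with at most 47 in any, or 237 CPM against 5.65 CPM in the others, Fabp5 had 42 UMIs in 18 barcodes, 16 of them in 1, and Idi1 had 55 in 22, 23 of them in 1.

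Tcf7 was spread more evenly. This gene for TCF-1, a factor of early ILC development, marked 16 of 37 such barcodes in WT and 22 of 52 in Pac1-/-, with at most 4 and 6 UMIs in any, at 54.2 and 54.6 CPM against 21.8 and 18.8 CPM in the others. Il18r1, the IL-18 receptor chain, was found in 13 and 21 of them, at 58.4 and 60.8 CPM against 26.3 and 21.0 CPM. Median depth was higher in the chosen barcodes, and the part of depth and of barcodes with 2 cells in these values was not tested.

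Barcodes at 1500 UMIs were last split by 13 single genes, among them cytokines and receptors of ILC2 states, for Cd74, the classical chains and H2-DMa in each library. In 8 of these 78 comparisons the intervals with and without the gene lay apart, which is a count over many splits and small groups. All 78 rest on 1 random thinning and were not repeated over the 20, and some intervals lay apart by little. The splits named here were chosen after their values were seen. Tcf7 and Il18r1 had been named above from UMIs of the same barcodes, so their splits are not a separate finding. A classical chain was found in 5 of 202 WT barcodes with a Tcf7 UMI (2.48%, 0.808 to 5.68) and in 0.416% (0.281 to 0.593) of those without. In Pac1-/- it was found in 5 of 141 (3.55%, 1.16 to 8.08) and in 0.634% (0.451 to 0.866). Cd74 by Tcf7 was in 5.45% (2.75 to 9.53) against 1.94% in WT, but in 2.84% (0.778 to 7.10) against 1.80% in Pac1-/-, and H2-DMa in 1.98% (0.542 to 4.99) against 0.915% and 0.709% against 0.862%, with overlapping intervals. S1pr1, the receptor that guides lymphocytes out of tissue, split Cd74 into 3 of 68 WT barcodes with its UMI (4.41%, 0.919 to 12.4) and 2.01% of those without, and into 5 of 36 (13.9%, 4.67 to 29.5) and 1.76% (1.45 to 2.12) in Pac1-/-. There the classical chains were in 4 of 36 (11.1%, 3.11 to 26.1) and 0.639%. Further splits lay apart only in Pac1-/-, with Cd74 in 3 of 14 barcodes with Il17a (21.4%, 4.66 to 50.8) and 1.78% of those without, and the classical chains in 2.76% (0.903 to 6.33) with Il18r1 and 0.638% (0.454 to 0.871) without. Cd74 was found in 2.74% (2.12 to 3.47) of the 2410 WT barcodes with an Il5 UMI and in 1.70% (1.36 to 2.09) of those without, and in the Pac1-/- library in 2.68% (1.84 to 3.76) and 1.63% (1.3 to 2.02), where the intervals overlapped. The classical chains by Il5 overlapped in both libraries, at 0.622% against 0.399% and 1.17% against 0.589%. H2-DMa shares overlapped between the barcodes with and without Il5, at 0.996% (0.639 to 1.48) with and 0.918% (0.673 to 1.22) without in WT. These barcodes are cells of 1 library per genotype and not replicates, so the splits are a description.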

How the data were processed

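Per the labels, live lung ILC2s were sorted, pooled by genotype and made into 10x Genomics 3′ v3.1 libraries, 1 per genotype. The authors deposited raw UMI counts per gene and barcode, made with Cell Ranger (version 6.1.1 in the submitters' processing notes, 4.0.0 in the file headers) on mm10, with no normalization. The members and all gene lists were chosen with earlier results of these data known. Coordinates came from the GENCODE annotation of GRCm38, and promoters from RefSeq.

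Counts were summed over kept barcodes and divided by their total (CPM) with numpy 2.4.6 and pandas 2.3.3 under Python 3.11.15. Intervals were exact Poisson, Clopper-Pearson or conditional binomial at 95%, from scipy 1.17.1. They were tested on simulated data. The thinning depth of 1500 UMIs was the largest of 500, 1000, 1500, 2000 and 3000 that kept 90% of barcodes in each library. No doublets were removed. With 1 library per genotype no p-values were computed. Named genes were the members, the pathway, class I, factor and costimulation lists, cell type markers and the 10 genes most like the members. Alternatives changed the barcode limits, thinning, scaling and the B cell reference. The count of UMIs per sample is given with the results, and a few single-gene results are not reported here.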

Additional observations from a re-analysis of the deposited data

Results flagged for a closer look

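Class II UMIs were also counted in barcodes with under 500 detected genes, which were not among the kept barcodes. The 2403 such WT barcodes (median 596 UMIs) held 56 Cd74 UMIs, or 37.6 CPM, and 26 UMIs of H2-Aa, H2-Ab1 and H2-Eb1 together, or 17.4 CPM. The 2110 such Pac1-/- barcodes (median 579 UMIs) held 50 Cd74 UMIs, or 36.5 CPM, and 38 UMIs of the classical chains, or 27.7 CPM. All 4 counts lay above the floor of 3 counts set for this check, and their CPM lay above those of the kept barcodes of the same library. Barcodes with B cell genes were not removed from these sums, and the sources of these UMIs were not tested.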

How the results depend on the processing

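No paired analysis was possible because each genotype had 1 library. Under the alternatives, 63 values of the summary results lay within the counting interval of the reported value and 27 outside it, and for single genes and the summed classical chains 201 lay within it and 39 outside. Keeping barcodes with Cd79a, Cd79b or Igkc UMIs moved the summed members to 37.5 CPM in WT and 69.2 CPM in Pac1-/-, and their log2 ratio from 0.09 to 0.89. Without macrophage and dendritic markers the Pac1-/- sum was 29.8 CPM, and without barcodes of over 2 times the median UMIs the WT sum was 31.3 CPM. Leaving out barcodes of at least 5 member UMIs, added after the data were seen, gave 22.0 and 19.6 CPM and a log2 ratio of -0.17; these barcodes are chosen by the members. Scaling by the median gene also turned its sign, to -0.090, and -0.083 or -0.059 with a minimum of 10 UMIs or none.

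Shares of barcodes follow depth by construction. At 1000 UMIs, 2.34% of WT and 2.45% of Pac1-/- barcodes held any member, against 6.49% and 6.17% at 3000 UMIs and 11.0% and 12.4% without thinning. Cd74 with a classical chain was at 7.40 times expectation in WT at 3000 UMIs, and at 5.84 in WT and 5.71 in Pac1-/- without thinning. The share of member UMIs at the B cell ratio was 4.15% and 11.9% without Cr2, and 13.8% in WT without Ebf1, alternatives added after the data were seen. Barcodes of at least 3 member UMIs held 38.6% and 50.03% of member UMIs, and those of at least 10 held 17.7% and 26.0%. Counts of 10 to 57 UMIs for H2-DMb1 and Ciita limit what can be said of these 2 genes.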
